A study of Mus musculus with 24 samples.

Results

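The data describe Tet triple knockout (TKO, Tet1-/-:Tet2-/-:Tet3-/-) mouse embryonic stem cells (ESCs) before and after 6 days without leukemia inhibitory factor (LIF). Libraries were chosen by genotype and day from the sample labels. They are 4 of the 24 RNA-seq libraries of the series. TKO clones TKO_8.4 and TKO_8.12 were each sequenced once at day 0 (D0, ESC medium with LIF, on gelatin) and once at day 6 (D6, the same medium with no LIF). The other responses come from WT (3 clones, 6 libraries), Tet2-/- (2 clones, 4 libraries), the Tet1-/-:Tet2-/- double knockout (DKO, 2 clones, 4 libraries) and Tet1-/- (6 libraries) at the same days. All lines are 129 derived in the labels (129/SVj in the study's methods) and stem from 1 ESC clone with an eGFP reporter in Pou5f1 (Oct4), so WT here also carries the reporter. The knockouts are CRISPR clones of that line. With 2 TKO clones, p-values rest on a spread between clones that was pooled over all genotypes. The spread of the TKO clones, as edgeR's common coefficient of variation, was 0.304 at D0 and 0.279 at D6, against 0.070 to 0.244 in the other groups. D0 and D6 were deposited as separate tables, so day cannot be told apart from any run that made a table.

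TET1, TET2 and TET3 are dioxygenases that oxidize 5-methylcytosine, a step in removing DNA methylation from regulatory sequence. LIF keeps mouse ESCs pluripotent through JAK and STAT3. Its removal lets the naive state give way to epiblast-like cells and then to derivatives of the germ layers. The 3 edited sites are shown because they define the genotype. Each line gives 10 bases on either side of the site in mm9, 5′ to 3′, with the guide and its PAM in capitals and the coordinates those of the guide alone.
Tet1 guide, chr10:62296296-62296315, minus strand, exon 5 of 13, coding: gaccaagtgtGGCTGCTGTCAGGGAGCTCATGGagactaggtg
Tet2 guide, chr3:133148620-133148639, minus strand, exon 3 of 11, coding: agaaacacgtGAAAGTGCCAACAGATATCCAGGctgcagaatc
Tet3 guide, chr6:83329888-83329907, minus strand, exon 5 of 11, coding: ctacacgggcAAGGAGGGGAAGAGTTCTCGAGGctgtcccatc

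The edits are indels within coding exons and the transcripts are still counted, so RNA of the 3 genes does not check the knockout. Levels are TMM-scaled CPM (counts scaled to library size). Wherever a pair of values stands for a day, clone TKO_8.4 comes first and clone TKO_8.12 second. Tet1 went from 568 and 41.7 CPM to 248.7 and 57.7 CPM (log2 change -0.39 ± 0.35, adjusted p = 0.364). Tet2 went from 42.5 and 8.16 CPM to 16.2 and 10.5 CPM (log2 change -0.59 ± 0.30, adjusted p = 0.124). For both genes clone TKO_8.4 began higher and fell while clone TKO_8.12 rose a little, so neither was called. Tet3 was higher at D6 in both clones, going from 4.43 and 2.84 CPM to 7.72 and 8.74 CPM (log2 change 1.19 ± 0.29, adjusted p = 0.00487). WT held 220.4 to 431 CPM at D0 and 108 to 125 CPM at D6 of Tet1. Its Tet2 fell from a range of 87.9 to 94.0 CPM to one of 12.3 to 16.0 CPM, a larger fall than in TKO (difference 2.16 ± 0.38, adjusted p = 0.0087).

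Of the genes tested in TKO cells, 25.4% were called different between D0 and D6. Of 15639 genes tested with edgeR's quasi-likelihood test, 2648 (16.9%) were called higher at D6 and 1320 (8.44%) lower. A gene was called at an adjusted p under 0.05 with a change of more than 2-fold. Every log2 change below is D6 minus D0, with its standard error. WT had 3231 higher (20.7%) and 2106 lower calls (13.5%) in the same fit, 34.1% of genes. Of the higher TKO calls, 2125 were also called higher in WT, which is 80.2% of the TKO list and 65.8% of the WT list. Of the lower ones, 922 were also called lower in WT, 69.8% of the TKO list and 43.8% of the WT list. Only 29 genes were called in opposite directions, 27 of them higher in TKO and lower in WT. Depth lay between 19603502 and 29931126 counts in the TKO libraries and between 18400463 and 37290208 in the other 20. The median log2 change over all genes was 0.20 with scaling by library totals, in place of 0.019 with TMM. It gave 3193 higher and 944 lower calls, with lower calls at 22.8% of all calls in place of 33.3%.

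**Figure D1:**
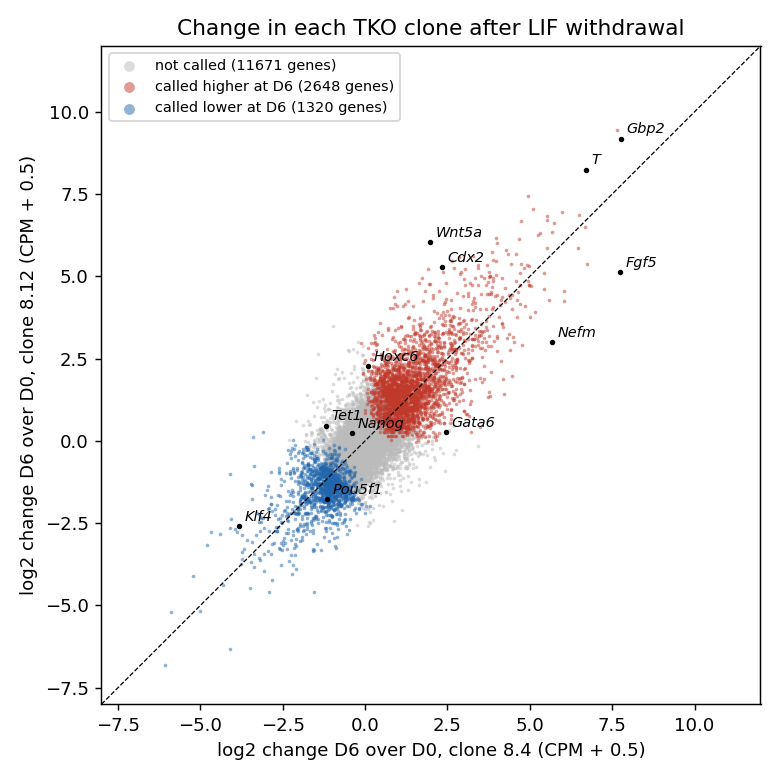
Log2 change from D0 to D6 of each of 15639 genes in TKO clone 8.4 (horizontal) and the other TKO clone (vertical), on CPM plus a pseudocount of 0.5, with genes called higher in red, called lower in blue and not called in gray. The points follow the dashed line of equal change (Pearson r = 0.78 across genes, which are not independent replicates) with a wide spread, and Wnt5a and Cdx2 lie toward the vertical axis while Fgf5 and Nefm lie toward the horizontal one.

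The 2 clones shared a response and differed widely around it. On CPM plus 0.5, 1402 genes (8.96%) rose more than 2-fold in both clones and 659 (4.21%) fell more than 2-fold in both. Another 613 passed 2-fold upward only in clone TKO_8.4 and 1201 only in clone TKO_8.12. Downward the counts were 424 and 1112. The clones moved more than 2-fold in opposite directions in 24 genes. Of the 3968 called genes, 2061 moved more than 2-fold the same way in both clones. The biological coefficient of variation between the TKO clones was 0.304 at D0 and 0.279 at D6, against 0.070 to 0.244 in the other groups. The median over genes of the SD of the response was 0.287 in TKO, 0.213 in WT, 0.179 in Tet1-/-, 0.125 in DKO and 0.113 in Tet2-/- cells. Without clone TKO_8.4 the calls were 2764 higher and 1842 lower, and without clone TKO_8.12 they were 2198 and 1063. The remaining clone was then assumed to vary like those of the other genotypes.

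The genes with the largest difference of log2 change between clones were taken among those at 10 CPM or more in at least 1 TKO library. Wnt5a, a noncanonical Wnt ligand gene, stood at 0.418 and 0.289 CPM at D0 and 3.08 and 51.3 CPM at D6. Gpc3, a heparan sulfate proteoglycan gene, stood at 41.7 and 15.2 CPM at D0 and 82.1 and 371 CPM at D6. Vim, the mesenchymal intermediate filament gene, was lower at D6 in clone TKO_8.4 and higher in clone TKO_8.12, with 389 and 222 CPM at D0 and 137 and 836 CPM at D6. All 3 ended higher in clone TKO_8.12, as did Lgals3 and Vldlr (13.5 and 63.8 CPM and 9.07 and 21.7 CPM at D6). Neurofilament genes went the other way. Nefm stood at 1.80 and 1.11 CPM at D0 and 116 and 12.4 CPM at D6 and Nefl at 16.6 and 15.6 CPM at D0 and 189.8 and 21.3 CPM at D6. The kinase gene Pim2 likewise ended higher in clone TKO_8.4, with 9.94 and 15.1 CPM at D0 and 193 and 41.4 CPM at D6. Some differences were larger at D0 than at D6. Cubn, a receptor gene of visceral endoderm, stood at 0.46 and 10.02 CPM at D0 and 1.20 and 2.5 CPM at D6. Magohb, Hpcal4 and Sp6 also began higher in clone TKO_8.12, and Ndufa4l2 in clone TKO_8.4. Grin1 and its antisense partner Grin1os fell in clone TKO_8.4 and not in the other, and without strand their reads cannot be told apart. With 1 library per clone and day these differences have no test.

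Most naive pluripotency genes went down. Of 19 tested, 15 were called lower and 1 higher, beside 8.44% and 16.9% of all genes tested, with a median log2 change of -1.77 against 0.02 over all genes tested. Gbx2, a homeobox gene that sustains self-renewal, went from 64.8 and 69.7 CPM to 1.51 and 1.45 CPM (log2 change -5.49 ± 0.39, adjusted p = 1.40e-06). Nr0b1 (Dax1) went from 105 and 109 CPM to 10.9 and 8.54 CPM (log2 change -3.46 ± 0.51, adjusted p = 0.000226). Klf4 went from 579.9 and 320.0 CPM to 40.2 and 52.7 CPM (log2 change -3.23 ± 0.37, adjusted p = 4.68e-05). In each both D6 libraries lay below both D0 libraries. Jam2, a junction adhesion gene, was lower too (log2 change -2.64 ± 0.33, adjusted p = 7.61e-05). Esrrb, Tfcp2l1, Zfp42 (Rex1), Tcl1, Tbx3 and Nr5a2, of the same network, were called lower with log2 changes between -2.40 and -1.77. Dppa5a and Pecam1 were the 2 of highest level that were not called. Dppa5a went from 928 and 977 CPM to 716 and 678 CPM (log2 change -0.45 ± 0.33, adjusted p = 0.271) and Pecam1 had a log2 change of -0.42.

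Dppa3 (Stella), a maternal factor gene and a naive and germline marker, ran against the list. It went from 0.585 and 9.31 CPM to 13 and 66.2 CPM (log2 change 3.43 ± 0.45, adjusted p = 0.0001). Clone TKO_8.12 was the higher at both days and both clones rose. WT held 0.566 to 1.73 CPM at D0 and 0.857 to 5.16 CPM at D6, a smaller rise (difference 2.16 ± 0.60, adjusted p = 0.0455).

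The core pluripotency list had a smaller median change. Of 16 tested, 8 were called lower and none higher, beside 8.44% and 16.9% of all genes tested, with a median of -0.80. Pou5f1 (Oct4) fell from 749 and 596 CPM to 336 and 173 CPM (log2 change -1.47 ± 0.20, adjusted p = 0.00013). Sox2 fell from 898 and 589 CPM to 328 and 239 CPM (log2 change -1.38 ± 0.30, adjusted p = 0.0025). The chromatin factor gene Utf1 fell from 527 and 839 CPM to 225 and 135 CPM (log2 change -1.93 ± 0.50, adjusted p = 0.007), and the threonine dehydrogenase gene Tdh had a log2 change of -2.58 ± 0.28 (adjusted p = 2.91e-05). For these genes both clones were lower at D6. Nanog went from 541 and 545 CPM to 409.7 and 638 CPM (log2 change -0.087 ± 0.21, adjusted p = 0.751). Clone TKO_8.4 went down and clone TKO_8.12 up, so the days overlapped, and the sign of the pooled change was positive when scaled by library totals (0.09). Nanog lies at chr6:122657507-122664651 (mm9, plus strand). WT Nanog fell from a range of 679 to 784 CPM to one of 207 to 477 CPM, and the difference in response was called (difference 1.14 ± 0.28, adjusted p = 0.0274). Rif1, a replication timing factor gene, was not called (log2 change 0.27 ± 0.13, adjusted p = 0.103). Sall4 passed the p threshold with a change of less than 2-fold (log2 change -0.44 ± 0.11, adjusted p = 0.0045). Without clone TKO_8.12, 3 of the 16 were called lower, and without its D6 library (and no block) 2.

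In several of these genes the TKO response lay above that of WT. Of the naive list 6 were called above WT in the difference of responses (Dppa3, Sox15, Dppa5a, Klf2, Zfp42 and Tcl1), beside 2.73% of all genes. Of the core list 4 were (Rif1, Nanog, Dppa4 and Dppa2). The list medians in WT were -2.89 and -1.20. Dppa2 and its partner Dppa4 encode small DNA-binding proteins of the early embryo. Dppa2 went from 59.2 and 90.9 to 29.7 and 29.8 CPM in TKO and from a range of 76.3 to 92.1 CPM to one of 4.94 to 13.9 CPM in WT (difference 2.23 ± 0.37, adjusted p = 0.00691). Dppa4 went from 59.4 and 76.5 to 49 and 52.7 CPM in TKO and from a range of 66.1 to 77.4 CPM to one of 14.0 to 29.5 CPM in WT (difference 1.56 ± 0.31, adjusted p = 0.0135). For both genes the genotypes overlapped at D0 and were apart at D6. Of the 19 naive genes, both TKO libraries lay below all 3 WT libraries at D0 in 8 (42.1%, against 16.6% of all genes tested) and above them at D6 in 7 (36.8%, against 17.2%). The count of 6 was 1 without clone TKO_8.4, 0 without WT clone O4.1 or O4.13, 0 without the clone block and 12 without WT clone O4.2.

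Some genes of the LIF pathway fell. Socs3, the feedback inhibitor of the pathway, went from 234 and 142 CPM to 15.3 and 20.6 CPM (log2 change -3.37 ± 0.30, adjusted p = 8.32e-06). The coactivator gene Bcl3 went from 48.4 and 55.0 CPM to 4.24 and 4.64 CPM (log2 change -3.54 ± 0.18, adjusted p = 1.42e-07). Each was lower in both clones. Of 14 genes of the LIF pathway 5 were called lower and 1 higher, beside 8.44% and 16.9% of all genes tested. Stat3 and Pim3 were among the lower ones (log2 changes -1.29 and -1.50). Jak2 was the 1 called higher, going from 9.44 and 3.09 CPM to 24 and 47.1 CPM (log2 change 2.55 ± 0.48, adjusted p = 0.00103). The receptor subunit gene Il6st and the phosphatase gene Ptpn11 were not called (log2 changes 0.39 and 0.37).

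Of 17 genes of the formative and primed epiblast tested, 9 were called higher and 1, Foxd3, lower, beside 16.9% and 8.44% of all genes. The median was 1.70 in TKO and 2.82 in WT. Fgf5, a marker of the primed epiblast, went from 0.125 and 0.536 CPM to 132 and 35.8 CPM (log2 change 7.80 ± 0.56, adjusted p = 1.56e-06). Cdh2 (N-cadherin) went from 3.13 and 3.92 CPM to 19.3 and 122 CPM (log2 change 3.88 ± 0.61, adjusted p = 0.000348). Krt18 went from 11 and 19.5 CPM to 281 and 390.5 CPM (log2 change 4.49 ± 0.27, adjusted p = 5.02e-07). Fgf5 ended higher in clone TKO_8.4 and the other 2 in clone TKO_8.12. Dnmt3b, a de novo methyltransferase gene, was higher at D6 in clone TKO_8.4 only, with 149 and 203 CPM at D0 and 609.7 and 189 CPM at D6 (log2 change 0.97 ± 0.37, adjusted p = 0.0428), under 2-fold overall. The homeobox gene Otx2 was not called (log2 change 0.85 ± 0.34, adjusted p = 0.0551). Zic2 rose less than in WT, from 18.0 and 28.2 to 85.3 and 63.2 CPM against 9.46 to 13.3 up to 148 to 164 CPM (difference -2.04 ± 0.29, adjusted p = 0.00448). Lef1 also rose less (difference -1.89 ± 0.53, adjusted p = 0.0481), and Sox4, called in WT, was not called in TKO (difference -1.38 ± 0.20, adjusted p = 0.00448).

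Many markers of the primitive streak, where epiblast cells leave to form mesoderm and endoderm, came on. Of 25 tested, 15 were called higher and 2 lower, beside 16.9% and 8.44% of all genes tested, with a median of 2.13. T (Brachyury, chr17:8627288-8635361, plus strand) stood at 0.0835 and 0.165 CPM at D0 and 60.3 and 199.8 CPM at D6. That is 911-fold (95% interval 419 to 2485), adjusted p = 1.79e-07, where the interval covers counting error only. The WT range at D6 was 77.2 to 164 CPM and lay between the 2 TKO values. Fgf8 went from 0.167 and 0.0412 to 30.1 and 56.7 CPM, or 388-fold (95% interval 166 to 1195), adjusted p = 9.81e-08. Wnt3, a ligand gene needed to start the streak, went from 0.418 and 0.33 CPM to 35.6 and 66.1 CPM (log2 change 7.04 ± 0.33, adjusted p = 1.01e-07). Msgn1, of presomitic mesoderm, had 1 count at D0 and 0.492 and 9.94 CPM at D6, or 197-fold (95% interval 35.0 to 7827), adjusted p = 0.000226. Clone TKO_8.12 was the higher at D6 in all 4. Bmp4 fell from 145 and 100.2 CPM to 8.03 and 49.5 CPM (log2 change -2.54 ± 0.64, adjusted p = 0.00594), and Cdx1 was the other gene called lower (log2 change -2.24 ± 0.45, adjusted p = 0.0017). Nodal rose by less than 2-fold (log2 change 0.76 ± 0.16, adjusted p = 0.00254).

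Of these 25 genes 6 had a smaller response in TKO than in WT. Lhx1, Eomes, Pdgfra, Mesp1, Dll3 and Kdr were called below WT in the difference of responses, and are named here for that, after their values were seen. Mesp1, an early factor gene of cardiac mesoderm, stood at 0.125 and 0.701 CPM at D0 and 0.431 and 1.30 CPM at D6 in TKO. In WT it went from a range of 0.0864 to 0.288 CPM to one of 9 to 34.9 CPM (difference -5.71 ± 0.87, adjusted p = 0.00533). Kdr (Flk1), the receptor gene of vascular and blood mesoderm, stood at 2.13 and 3.87 CPM at D0 and 2.12 and 4.44 CPM at D6 in TKO. In WT it went from a range of 1.53 to 3.54 CPM to one of 20.3 to 119 CPM (difference -4.54 ± 1.15, adjusted p = 0.0335). For both genes the TKO values of the 2 days overlapped. Eomes did rise in TKO, from 21.3 and 8.37 CPM to 67.5 and 52.7 CPM (log2 change 2.13 ± 0.31, adjusted p = 0.000223), but WT reached 96.7 to 261 CPM (difference -2.57 ± 0.41, adjusted p = 0.00641). Pdgfra reached 3.69 and 7.49 CPM in TKO and 21.4 to 80.9 CPM in WT (difference -3.79 ± 0.74, adjusted p = 0.0125). Both TKO D6 libraries lay below all 3 WT D6 libraries in 14 of the 25 genes, beside 18.9% of all genes tested. The count of 6 below WT (2.28% of all genes) was 3 without WT clone O4.13. The list medians were 4.65 in WT, 2.76 in DKO and 0.57 in Tet2-/- cells. None of the 25 was called below DKO by edgeR or DESeq2, with 3 below at an unadjusted p under 0.05.

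Of 16 definitive endoderm genes tested, 6 were called higher and 1 lower, beside 16.9% and 8.44% of all genes, with a median of 1.27 in TKO (1.19 with a gene at 0 counts on 1 day set to its bound) and 3.88 in WT. The keratin gene Krt19 went from 6.43 and 3.17 CPM to 74.0 and 149 CPM (log2 change 4.48 ± 0.52, adjusted p = 4.73e-05) and the claudin gene Cldn6 from 21.9 and 21.2 CPM to 261 and 152 CPM (log2 change 3.21 ± 0.25, adjusted p = 2.74e-06). Foxa2, a factor gene that defines the lineage, was called higher at a low level, from 0.0418 and 0.495 CPM to 4.52 and 0.699 CPM (log2 change 2.99 ± 0.80, adjusted p = 0.00832). Cer1, a secreted Nodal and BMP antagonist gene, had 1 count at D0 and 6.49 and 0.899 CPM at D6, or 210.1-fold (95% interval 37.3 to 8334), adjusted p = 0.000232. Both ended higher in clone TKO_8.4. Gata6 stood at 0.251 and 4.29 CPM at D0 and 3.63 and 5.24 CPM at D6, so the D0 value of clone TKO_8.12 lay between the 2 D6 values, and it was not called (log2 change 1.43 ± 0.76, adjusted p = 0.132). In WT Gata6 went from a range of 0.323 to 1.15 CPM to one of 16.4 to 59.3 CPM (difference -4.29 ± 1.07, adjusted p = 0.0319). Gata4 stood at 2.51 and 4.99 CPM at D0 and 4.52 and 9.99 CPM at D6 in TKO and reached 20.4 to 91.9 CPM in WT (difference -4.02 ± 0.49, adjusted p = 0.00212). Sox17 reached 4.09 and 0.749 CPM in TKO and 10.3 to 68.5 CPM in WT (difference -5.70 ± 1.14, adjusted p = 0.0139). Cxcr4 and Hhex were the other 2 called below WT. At D6 both TKO libraries were below all 3 WT libraries in 10 of the 16 genes, beside 18.9% of all genes tested. At D0 both were above all 3 in 5 of the 16 (31.2%, beside 16.3% of all genes tested). The list medians were 1.92 in DKO and 1.21 in Tet2-/- cells. None of the 16 was called below DKO by edgeR, with 7 below at an unadjusted p under 0.05 and 1 called by DESeq2. The count of 5 below WT (2.28% of all genes) was 3 without clone TKO_8.12 and 3 without WT clone O4.1. In bulk RNA, fewer cells of a type and less RNA in each such cell cannot be told apart.

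**Figure D2:**
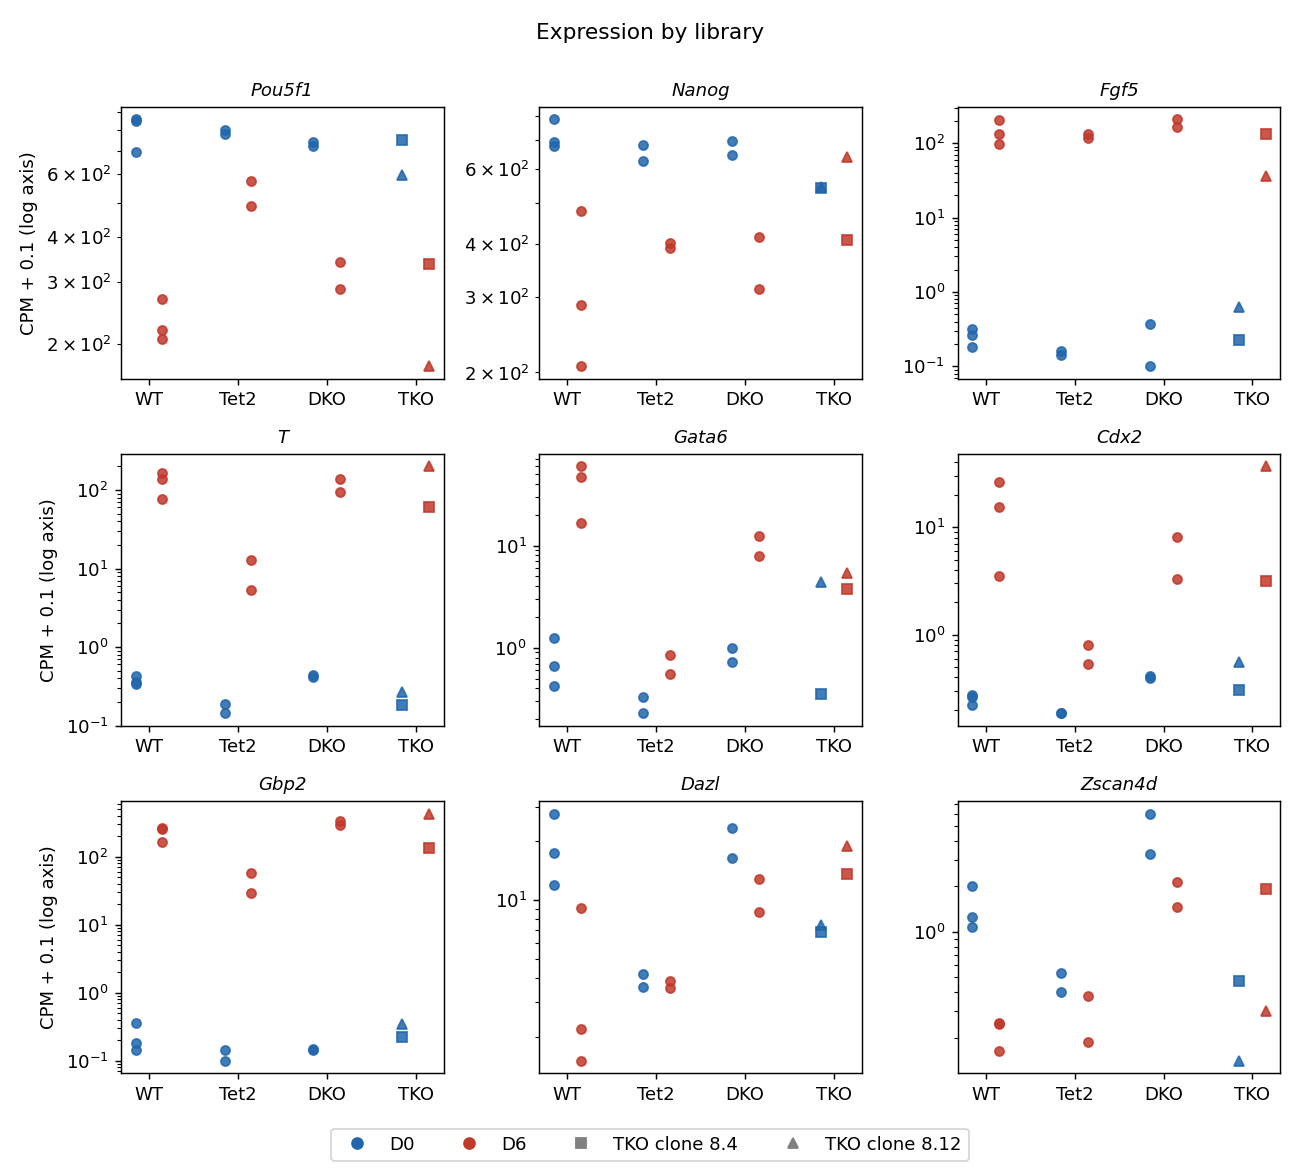
CPM plus 0.1 on a log axis of 9 genes in each WT, Tet2-/-, DKO and TKO library, with D0 in blue and D6 in red, and with clone 8.4 of TKO as squares and the other as triangles. T, Fgf5 and Gbp2 rise in every genotype shown, Gata6 at D6 is lower in TKO than in WT or DKO, Nanog overlaps between days in TKO, and Dazl is higher at D6 than at D0 in TKO and lower in WT.

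Of 21 extraembryonic endoderm genes tested, 4 were called higher and 1 lower, beside 16.9% and 8.44% of all genes tested. Cited1 went from 0.627 and 2.23 CPM to 4.55 and 13 CPM (log2 change 2.67 ± 0.31, adjusted p = 5.08e-05). The endocytic adaptor gene Dab2 went from 1.67 and 8.57 CPM to 15.3 and 33.4 CPM (log2 change 2.49 ± 0.36, adjusted p = 0.000203). The protease gene Plat rose as well (log2 change 2.64 ± 0.42, adjusted p = 0.000366). The basement membrane gene Lama1 fell from 75.4 and 82.7 CPM to 7.81 and 16.3 CPM (log2 change -2.80 ± 0.24, adjusted p = 5.82e-06). Sparc and Lamc1 were not called (log2 changes 0.69 and -0.28). Cubn, Dab2 and Gata6 all began higher in clone TKO_8.12, and what part these D0 levels have in the pooled values was not tested.

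Trophectoderm genes mark the outer layer of the blastocyst. Of 19 tested, 13 were called higher and 1 lower, beside 16.9% and 8.44% of all genes tested. In WT 12 were called higher, beside 20.7% of all genes. The median was 3.04 in TKO (2.93 with bounds) and 3.63 in WT. Cdx2, which also marks posterior mesoderm, went from 0.209 and 0.453 CPM to 3.05 and 36.5 CPM (log2 change 5.61 ± 0.52, adjusted p = 1.09e-05). Gata3 went from 0.167 and 0.289 CPM to 5.01 and 20.3 CPM (log2 change 5.68 ± 0.54, adjusted p = 1.13e-05). Both ended higher in clone TKO_8.12, and for Cdx2 the WT range at D6 was 3.38 to 26.0 CPM. Plac1 had 2 counts at D0 and 0.246 and 2.70 CPM at D6, or 28.4-fold (95% interval 7.55 to 240.1), adjusted p = 0.00399. Elf5 had none at D0 and reached 0.308 and 0.749 CPM (at least 7.65-fold higher). Tfap2c and Ets2 were not called (log2 changes 0.55 and 0.68).

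Of 16 neural crest and surface ectoderm genes tested, 11 were called higher and 1 (Foxd3) lower, beside 16.9% and 8.44% of all genes. The median was 3.04. In WT 13 were called higher, beside 20.7% of all genes. The homeobox gene Msx1 went from 0.251 and 0.165 CPM to 7.54 and 17.3 CPM (log2 change 5.82 ± 0.35, adjusted p = 4.72e-07). Ets1 went from 0.71 and 2.18 CPM to 20.9 and 31.6 CPM (log2 change 4.26 ± 0.33, adjusted p = 2.74e-06). Tfap2a and Snai2 were not called, the clones moving in opposite directions (log2 changes 1.18 and 0.54). In neuroectoderm 7 of 22 were called higher and 3 lower, beside 16.9% and 8.44% of all genes. The neuronal tubulin gene Tubb3 fell from 151 and 152 CPM to 19.7 and 5.89 CPM (log2 change -3.73 ± 0.54, adjusted p = 0.000201). Pax3, a paired box gene, had 1 count at D0 and 0.123 and 3.59 CPM at D6, or 69.7-fold (95% interval 12.1 to 2789.8), adjusted p = 0.00111. Fabp7 went from 0.0418 and 0.165 to 0.707 and 2.25 CPM, or 12.5-fold (95% interval 5.09 to 39.7), adjusted p = 0.00185. Zic1 had no count at D0 and reached 0.0923 and 0.899 CPM (at least 6.42-fold higher). These 3 rises were larger in clone TKO_8.12. Sox21 fell (log2 change -2.43 ± 0.50, adjusted p = 0.00193), and with Zic2 and Zic5 it was called below WT (difference -2.32 ± 0.61, adjusted p = 0.0392).

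Many contractile and matrix genes rose. In the cardiac and smooth muscle list 15 of 25 were called higher and 1 lower, beside 16.9% and 8.44% of all genes tested. Tagln, an early smooth muscle gene, went from 2.51 and 3.50 CPM to 271 and 467 CPM (log2 change 6.92 ± 0.27, adjusted p = 3.09e-08). Smooth muscle actin Acta2 went from 0.167 and 0.0412 to 20.2 and 92.9 CPM, or 462-fold (95% interval 198 to 1424), adjusted p = 2.18e-06. Myl9 went from 0.418 and 1.44 CPM to 32.4 and 28.7 CPM (log2 change 5.08 ± 0.39, adjusted p = 2.74e-06). Cardiac actin Actc1 had no count at D0 and reached 3.51 and 5.94 CPM (at least 71.3-fold higher). Des and Smtn changed by less than 2-fold (log2 changes -0.39 and 0.55). In the fibroblast and matrix list 20 of 23 were called higher and 1, Thy1, lower, beside the same shares of all genes. Its median was 3.51, or 2.65 with genes at 0 counts set to their bounds. Col3a1, a fibrillar collagen gene, had 1 count at D0 and 2.09 and 11.1 CPM at D6, or 267-fold (95% interval 47.5 to 10581), adjusted p = 3.60e-05. Tenascin C (Tnc) reached 1.20 and 14.7 CPM, biglycan (Bgn) 4.58 and 25.7 CPM and Lum, from 0 counts, 0.215 and 1.10 CPM. All of these matrix genes ended higher in clone TKO_8.12. Col1a1, at a level that allows a fitted value, went from 1 and 3.96 CPM to 21.5 and 49.3 CPM (log2 change 3.94 ± 0.34, adjusted p = 6.95e-06).

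The epithelial to mesenchymal list had 15 of 24 called higher and 1 lower, beside 16.9% and 8.44% of all genes. The called genes came from both sides of the transition. On the mesenchymal side, Tgfb2 went from 0.961 and 2.31 CPM to 20.6 and 149 CPM (log2 change 5.40 ± 0.52, adjusted p = 1.29e-05) and Zeb2 from 0.418 and 0.412 CPM to 5.08 and 17.1 CPM (log2 change 4.58 ± 0.62, adjusted p = 0.000126). Prrx1 reached 0.246 and 0.649 CPM from 0 counts (at least 6.42-fold higher). On the epithelial side the claudin genes Cldn3, Cldn4 and Cldn7 rose (log2 changes 3.55, 2.03 and 3.46). Cdh1 (E-cadherin) went from 531 and 598 CPM to 1028 and 814 CPM (log2 change 0.70 ± 0.14, adjusted p = 0.0019), a rise of less than 2-fold. Fn1, not called, was lower at D6 in clone TKO_8.4 and higher in the other, with 1254 and 913 CPM at D0 and 867 and 2018 CPM at D6. Endothelial and blood genes were called higher in 6 of 18 and lower in 2, beside 16.9% and 8.44% of all genes. Flt1 rose from 0.668 and 0.453 CPM to 18.3 and 8.19 CPM (log2 change 4.51 ± 0.26, adjusted p = 3.44e-07) and Gata2 had a log2 change of 3.04. Cdh5 was at 0.0418 and 0.33 CPM at D0 and 0.154 and 1.85 CPM at D6, or 4.28-fold (95% interval 2.05 to 10.003), adjusted p = 0.00444, and without the D6 library of clone TKO_8.12 (and no block) its log2 change was -0.25. Sox7 fell (log2 change -2.86 ± 0.44, adjusted p = 0.000292) and Eng was not called (log2 change 0.0039).

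Hox genes, the homeobox clusters that pattern the body axis, rose mostly in 1 clone. Of 35 genes 23 were tested and 17 were called higher, none lower, beside 16.9% and 8.44% of all genes tested. Summed over the 23, the level was 3.84 and 7.17 CPM at D0 and 6.31 and 46.3 CPM at D6. The WT sum at D6 ran from 10.02 to 31.2 CPM. Hoxd9 had no count at D0 and 0.4 and 7.69 CPM at D6 (at least 51.1-fold higher). Hoxa9 reached 0.215 and 4.19 CPM, Hoxb2 0.0923 and 1.90 CPM and Hoxc6 0.0308 and 1.90 CPM, also from 0. Hoxb9 and Hoxd13 were not called (log2 changes -0.81 and -0.17). Without clone TKO_8.12, 1 Hox gene was called higher, and in a fit to the 4 TKO libraries alone 3 were.

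**Figure D3:**
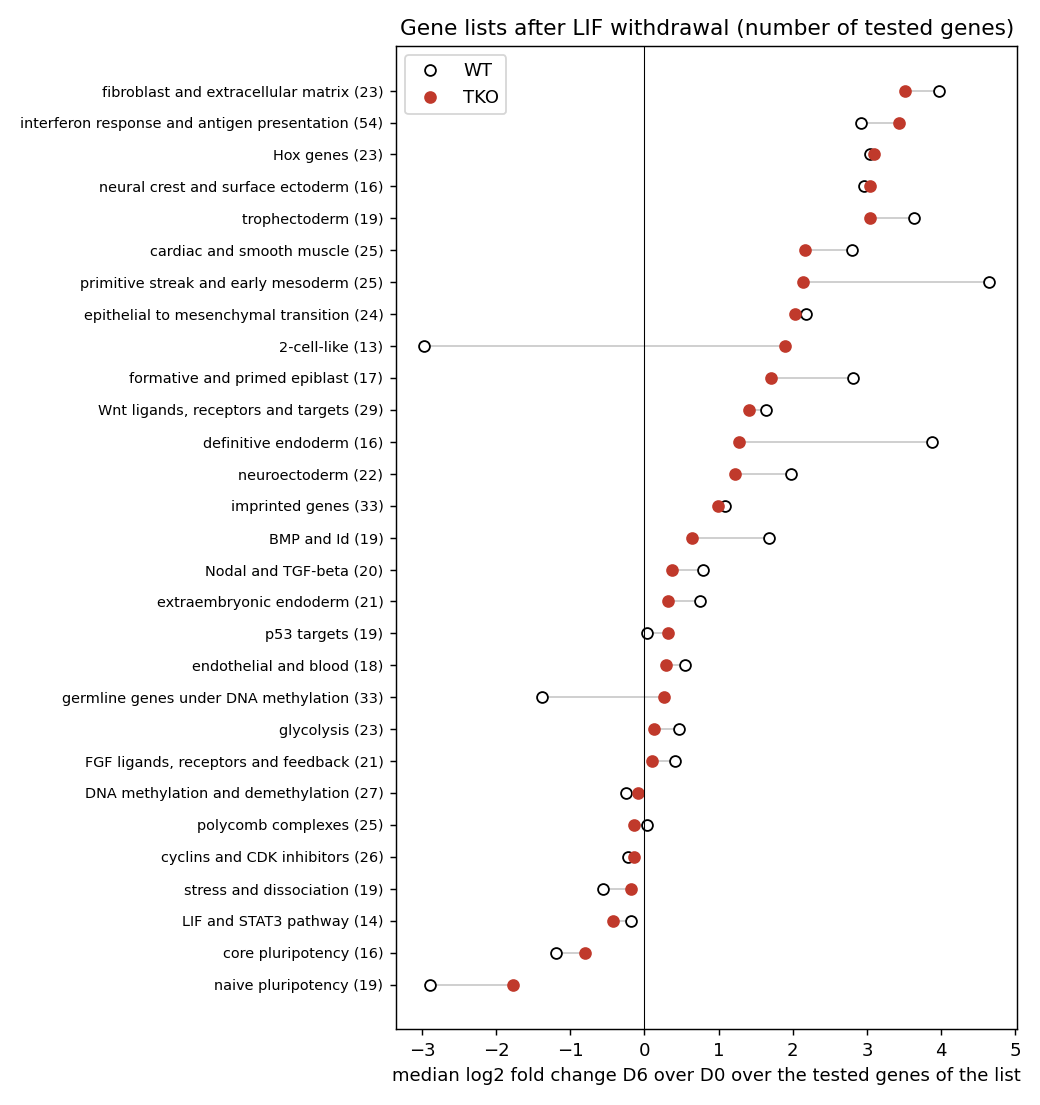
Median log2 change from D0 to D6 over the tested genes of each of 29 lists in TKO (filled) and WT (open), sorted by TKO, with the number of tested genes beside each name. The widest gaps are in the 2-cell-like list (1.90 against -2.97), the definitive endoderm and primitive streak lists, where TKO is the lower, and the germline list (0.27 against -1.39).

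Among 29 Wnt genes 16 were called higher and 5 lower, beside 16.9% and 8.44% of all genes tested. Of the ligands, Wnt4 went from 0.125 and 0.0412 to 13.5 and 4.34 CPM, or 120.4-fold (95% interval 46.8 to 444), adjusted p = 1.02e-05. Wnt5a, Wnt5b, Wnt3a, Wnt8a and Wnt11 were called higher too. The agonist gene Rspo3 went from 0.125 and 0.371 CPM to 3.35 and 38.3 CPM (log2 change 6.23 ± 0.54, adjusted p = 6.04e-06). The target gene Axin2 went from 11.2 and 6.64 CPM to 36.5 and 64.9 CPM (log2 change 2.47 ± 0.33, adjusted p = 0.000116). Both rose more in clone TKO_8.12. The inhibitor gene Dkk1 went from 0.167 and 0.453 CPM to 3.17 and 8.94 CPM (log2 change 4.26 ± 0.54, adjusted p = 8.14e-05) and reached 6.32 to 35.5 CPM in WT, where the rise was called larger (adjusted p = 0.0168). The receptor gene Fzd5 and the inhibitor genes Sfrp1 and Notum fell (log2 changes -2.95, -2.54 and -3.63). Lrp6 and Fzd7 were not called (log2 changes 0.65 and 0.26).

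Signalling lists stand beside 16.9% of all genes called higher and 8.44% called lower. In the FGF list 7 of 21 were called higher and 4 lower. The receptor gene Fgfr2 rose from 1.38 and 3.96 CPM to 21.6 and 25.4 CPM (log2 change 3.25 ± 0.36, adjusted p = 3.25e-05). Spry4, a feedback inhibitor gene of the pathway, fell from 457 and 275 CPM to 33 and 19.97 CPM (log2 change -3.79 ± 0.28, adjusted p = 1.83e-06). Etv4, Fgf4 and Spry2 were also lower, while Etv5 and Dusp6 were not called (log2 changes -0.58 and 0.1). Among 20 Nodal and TGF-beta genes 7 were called higher and 3 lower. The ligand gene Tgfb3 rose and Tgfbi fell (log2 changes 4.37 and -2.55), and Lefty2 and Smad2 were not called (log2 changes -0.93 and 0.045). Foxh1, whose product carries SMAD2 to DNA, was not called, from 57.4 and 56.2 CPM to 60.4 and 59.3 CPM (log2 change 0.075 ± 0.15, adjusted p = 0.703). In WT it rose from a range of 19.9 to 36.6 CPM to one of 64.7 to 109.9 CPM (difference -1.77 ± 0.20, adjusted p = 0.00188). TKO began above WT and ended below it. Of 19 BMP genes 7 were called higher and 2 lower. Bmp2 rose from 0.334 and 0.577 CPM to 2.74 and 29.1 CPM (log2 change 4.81 ± 0.73, adjusted p = 0.000268), mostly in clone TKO_8.12. Bmp5 and Grem1 had no D0 count (at least 13.1-fold and at least 4.89-fold higher), and the receptor genes Bmpr1a and Bmpr2 were not called (log2 changes 0.64 and 0.90).

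Most interferon-stimulated and antigen presentation genes rose, in a list chosen after the data had been seen. Of 54 tested, 40 were called higher and 1, Oasl1, lower, beside 16.9% and 8.44% of all genes tested. In WT 40 were called higher and 2 lower, beside 20.7% and 13.5% of all genes. The median was 3.44 in TKO (3.40 with genes at 0 D0 counts set to their bounds) and 2.93 in WT. Guanylate-binding proteins are interferon-induced GTPases. Gbp2 went from 0.125 and 0.247 CPM to 136 and 433 CPM (log2 change 10.53 ± 0.26, adjusted p = 1.56e-09). Gbp2b went from 0.167 and 0.206 CPM to 133 and 494 CPM (log2 change 10.64 ± 0.34, adjusted p = 1.12e-08). Both clones rose, clone TKO_8.12 further, and the WT range of Gbp2 at D6 was 163 to 263 CPM. Genes of this family are near copies, so their split of reads is uncertain. Iigp1 and Il15ra had no D0 count (at least 79.2-fold and at least 78.3-fold higher). The immunoproteasome gene Psmb8 went from 0.0835 and 0.33 CPM to 29.3 and 67.0 CPM (log2 change 7.85 ± 0.43, adjusted p = 5.22e-07). The peptide transporter gene Tap1 went from 2.55 and 2.27 CPM to 26.1 and 28.6 CPM (log2 change 3.50 ± 0.23, adjusted p = 7.41e-07). Irf1, a transcription factor gene of the response, went from 14.7 and 15.9 CPM to 94.3 and 156 CPM (log2 change 2.99 ± 0.16, adjusted p = 2.48e-07). Psmb10 and the receptor gene Ifnar1 changed by less than 2-fold (log2 changes 0.84 and 0.61). H2-K1, a class I heavy chain gene, went from 37.2 and 47.4 CPM to 71.3 and 101 CPM (log2 change 1.02 ± 0.11, adjusted p = 2.97e-05), a smaller rise than in WT (difference -1.35 ± 0.14, adjusted p = 0.00111).

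The motif searched was GAAA, any 2 bases, and GAAA again, the core of the interferon-stimulated response element. Both strands of the 300 bases around each start (250 before, 50 after, GENCODE, mm9) were read. It was found in 20 of the 52 promoters of the list with a sequence (38.5%) and in 3.04% of the promoters of all 14277 tested genes with one. The lines show 3 promoters that carry it within the 150 bases before the start, with matches in capitals (overlapping matches run together).
Gbp3, chr3:142222866-142223015, plus strand: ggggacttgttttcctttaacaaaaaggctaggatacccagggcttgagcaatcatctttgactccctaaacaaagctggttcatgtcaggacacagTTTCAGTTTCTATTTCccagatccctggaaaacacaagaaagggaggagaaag
Irgm2, chr11:58028380-58028529, plus strand: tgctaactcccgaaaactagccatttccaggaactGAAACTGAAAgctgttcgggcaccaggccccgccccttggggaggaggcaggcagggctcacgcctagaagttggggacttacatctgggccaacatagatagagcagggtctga
B2m, chr2:121973272-121973421, plus strand: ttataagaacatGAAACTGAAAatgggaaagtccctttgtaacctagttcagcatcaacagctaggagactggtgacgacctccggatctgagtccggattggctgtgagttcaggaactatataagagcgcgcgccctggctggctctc
Gbp3 holds 2 matches in this stretch, on the opposite strand, and the others 1 each. Gbp3 went from 0.125 and 0.0412 to 21 and 71.5 CPM. The GTPase gene Irgm2 went from 1.13 and 0.701 CPM to 12.2 and 24.8 CPM (log2 change 4.25 ± 0.44, adjusted p = 2.25e-05). B2m, the light chain of class I molecules, went from 15 and 19.99 CPM to 49 and 92.8 CPM (log2 change 1.97 ± 0.21, adjusted p = 3.01e-05). A match describes the letters only.

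Lists of cell state genes stand beside 25.4% of all genes tested that were called in either direction in TKO. Of 26 cyclin and CDK inhibitor genes 4 were called higher and 3 lower. Cdkn1c rose from 6.73 and 11.2 CPM to 26.8 and 54.8 CPM (log2 change 2.15 ± 0.18, adjusted p = 5.29e-06) and Ccnd3 fell (log2 change -1.79), as did Ccne1 and Myc. Cdk4 and Mcm2 were not called (log2 changes -0.65 and -0.60). Of 19 p53 targets 1 rose, Trp53inp1 (log2 change 1.31), and 1 fell, Gdf15 (-1.56). Trp53 and Ccng1 were not called (-0.84 and 0.62). In glycolysis 2 of 23 rose, Pfkfb3 and Slc16a3 (log2 changes 2.4 and 1.70), and Pkm and Slc2a3 were not called (-0.28 and 0.72). Among 25 polycomb genes Phf1 rose and Eed fell (log2 changes 1.93 and -1.29), with Suz12 and Rbbp4 not called (0.51 and -0.51). Stress and dissociation genes were called higher in 3 of 19 and lower in 5. Jun and Atf3 rose (log2 changes 2.90 and 2.1) and Trib3 and Hspb1 fell (-1.86 and -1.71). Hspa8 and Hsp90aa1 were not called (-0.18 and -0.0035, the latter positive with size factors or library totals in place of TMM).

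Imprinted genes are read from 1 parental allele. Of 33 tested, 15 were called higher and none lower, beside 16.9% and 8.44% of all genes tested. In WT 17 were called higher and none lower, beside 20.7% and 13.5% of all genes. The median was 0.99 in TKO and 1.09 in WT. The growth factor gene Igf2 went from 2.67 and 3.30 CPM to 61.0 and 209 CPM (log2 change 5.30 ± 0.54, adjusted p = 2.01e-05). Its neighbor H19 went from 0.877 and 0.701 CPM to 13.2 and 23.8 CPM (log2 change 4.49 ± 0.55, adjusted p = 6.50e-05). Peg3 went from 12.7 and 5.44 CPM to 213 and 379 CPM (log2 change 5.03 ± 0.49, adjusted p = 1.47e-05). Both clones rose in each, and Zim1 did too (log2 change 3.81). Snrpn and Ube3a were not called (log2 changes 0.48 and 0.032). Dlk1, Mest, Gnas and Phlda2 were called below WT in the difference of responses, beside 2.28% of all genes. For Mest the difference was -1.48 ± 0.32 (adjusted p = 0.0182).

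The largest changes were ranked among called genes that changed more than 2-fold the same way in both clones and had at least 5 CPM in both libraries of the higher day. Besides T, Fgf5, Fgf8, Acta2, Psmb8 and the Gbp genes, 4 more rises were among the 12 largest by fitted log2 change. Trim67 went from 0.0835 and 0.0412 to 30.9 and 52.9 CPM, or 631-fold (95% interval 215 to 3060.2), adjusted p = 2.78e-08. Thsd7a went from 0.0418 and 0.0412 to 20.3 and 41.2 CPM, or 681-fold (95% interval 188 to 5626), adjusted p = 1.11e-07. The protocadherin gene Pcdh7 had 1 count at D0 and 12.2 and 37.7 CPM at D6. The zinc finger gene Sp8 had none at D0 and reached 5.23 and 10.5 CPM (at least 117-fold higher), so its place among the 12 is not settled by its counts. Inhbb, an activin subunit gene, gave the largest fall, from 83.0 and 105 CPM to 0.738 and 0.449 CPM (log2 change -7.20 ± 0.32, adjusted p = 8.18e-08). The POU factor gene Pou4f2 went from 108 and 27.2 CPM to 1.32 and 0.25 CPM (log2 change -6.44 ± 0.46, adjusted p = 1.56e-06), and Msc, a basic helix-loop-helix gene, from 71.0 and 75.9 CPM to 3.63 and 0.449 CPM (log2 change -5.25 ± 0.54, adjusted p = 2.14e-05). Gbx2, Mras, Gm7325, Tmem151b, Islr2, En2, Emp1 and Tcf15 were also among the 12 largest falls (log2 changes from -5.49 to -4.02). In each of those named both D6 libraries lay below both D0 libraries. Of the 2648 higher calls, 131 had 0 counts in both D0 libraries, and their fitted changes are no measure of size.

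Of 27 DNA methylation genes 3 were called higher in TKO and 2 lower, beside 16.9% and 8.44% of all genes tested. Cxxc4 (Idax, a TET2-binding protein gene) rose from 0.125 and 0.165 CPM to 1.81 and 1.5 CPM (log2 change 3.47 ± 0.44, adjusted p = 8.06e-05). Gadd45b rose as well (log2 change 1.86). The repair gene Apex1 fell from 304 and 462 CPM to 171 and 128 CPM (log2 change -1.34 ± 0.19, adjusted p = 0.000155) and Mbd3 had a log2 change of -1.07. Parp1, Uhrf1 and Dnmt3a fell by less than 2-fold (log2 changes -0.66, -0.81 and -0.70). Dnmt3l, the inactive cofactor of the de novo methyltransferases, went from 109 and 122 CPM to 175 and 131 CPM (log2 change 0.39 ± 0.17, adjusted p = 0.0704). In WT it fell from a range of 248.7 to 263 CPM to one of 46.4 to 63.0 CPM (difference 2.59 ± 0.22, adjusted p = 0.000545). Both TKO libraries were below all WT libraries at D0 and above them at D6.

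Many germline genes that DNA methylation keeps silent in other cells responded differently in TKO and WT. Of 33 tested, 11 were called higher and none lower in TKO, beside 16.9% and 8.44% of all genes, with a median of 0.27. In WT 2 were called higher and 19 lower, beside 20.7% and 13.5% of all genes, with a median of -1.39. The difference of responses was called above WT in 19 genes and below in none, beside 2.73% and 2.28% of all genes. The list medians were -0.15 in DKO and -0.049 in Tet2-/- cells. None of the 33 was called above DKO by edgeR (0.0831% of all genes were), with 12 above at an unadjusted p under 0.05 and 3 called by DESeq2, and 2 were called above Tet2-/- (1.99% of all genes). Smc1b, a meiotic cohesin gene, went from 1.46 and 1.52 CPM to 17.1 and 10.5 CPM (log2 change 3.17 ± 0.60, adjusted p = 0.00113). Its WT range at D6, 1.97 to 23.9 CPM, took in the TKO values. Dazl, an RNA-binding protein gene of germ cells, went from 6.73 and 7.38 CPM to 13.4 and 18.7 CPM (log2 change 1.17 ± 0.29, adjusted p = 0.00552). In WT it fell from a range of 11.8 to 27.6 CPM to one of 1.41 to 8.97 CPM (difference 3.65 ± 0.39, adjusted p = 0.00112). Mael, of the piRNA pathway, went from 4.14 and 12.7 CPM to 16.6 and 20.2 CPM (log2 change 1.30 ± 0.34, adjusted p = 0.00756). In WT it fell from a range of 11.6 to 21.9 CPM to one of 2.77 to 10.6 CPM (difference 3.07 ± 0.45, adjusted p = 0.00471). For Dazl and Mael both TKO libraries were above every WT library at D6. Dpep3 (log2 change 1.99 ± 0.50, adjusted p = 0.00616), the bromodomain gene Brdt (log2 change 1.81 ± 0.39, adjusted p = 0.00262) and Tdrd6 were among the largest rises. Syce2 and Tex19.1 were not called (log2 changes 0.17 and -0.79).

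Other members were not called in TKO where WT fell. Piwil2, another piRNA gene, stood at 16.6 and 13.9 CPM at D0 and 17.1 and 13 CPM at D6 in TKO. In WT it fell from a range of 28.8 to 35.4 CPM to one of 2.82 to 6.79 CPM (difference 2.97 ± 0.32, adjusted p = 0.00114). Rpl39l, a testis copy of a ribosomal protein gene, stood at 16.7 and 4.12 CPM at D0 and 18.2 and 3.94 CPM at D6 and fell in WT from a range of 102 to 134 CPM to one of 6.05 to 15.9 CPM (difference 3.71 ± 0.45, adjusted p = 0.00209). Both began lower in TKO than in WT. Over the list, both TKO libraries lay below all 3 WT libraries at D0 in 10 of the 33 genes (30.3%, against 16.6% of all genes tested). At D6 they lay above them in 24 (72.7%, against 17.2%). Ddx4 (Vasa) rose by less than 2-fold (log2 change 0.61 ± 0.18, adjusted p = 0.0148). Sycp1, Sycp3, Tdrd1, Tdrd12 and Stag3 were the remaining members called higher, with log2 changes from 1.01 to 1.75. Without the clone block 7 were called higher in place of 11, and without the D6 library of clone TKO_8.12 (and no block) 4. Without WT clone O4.13 the count above WT was 7 in place of 19.

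**Figure D4:**
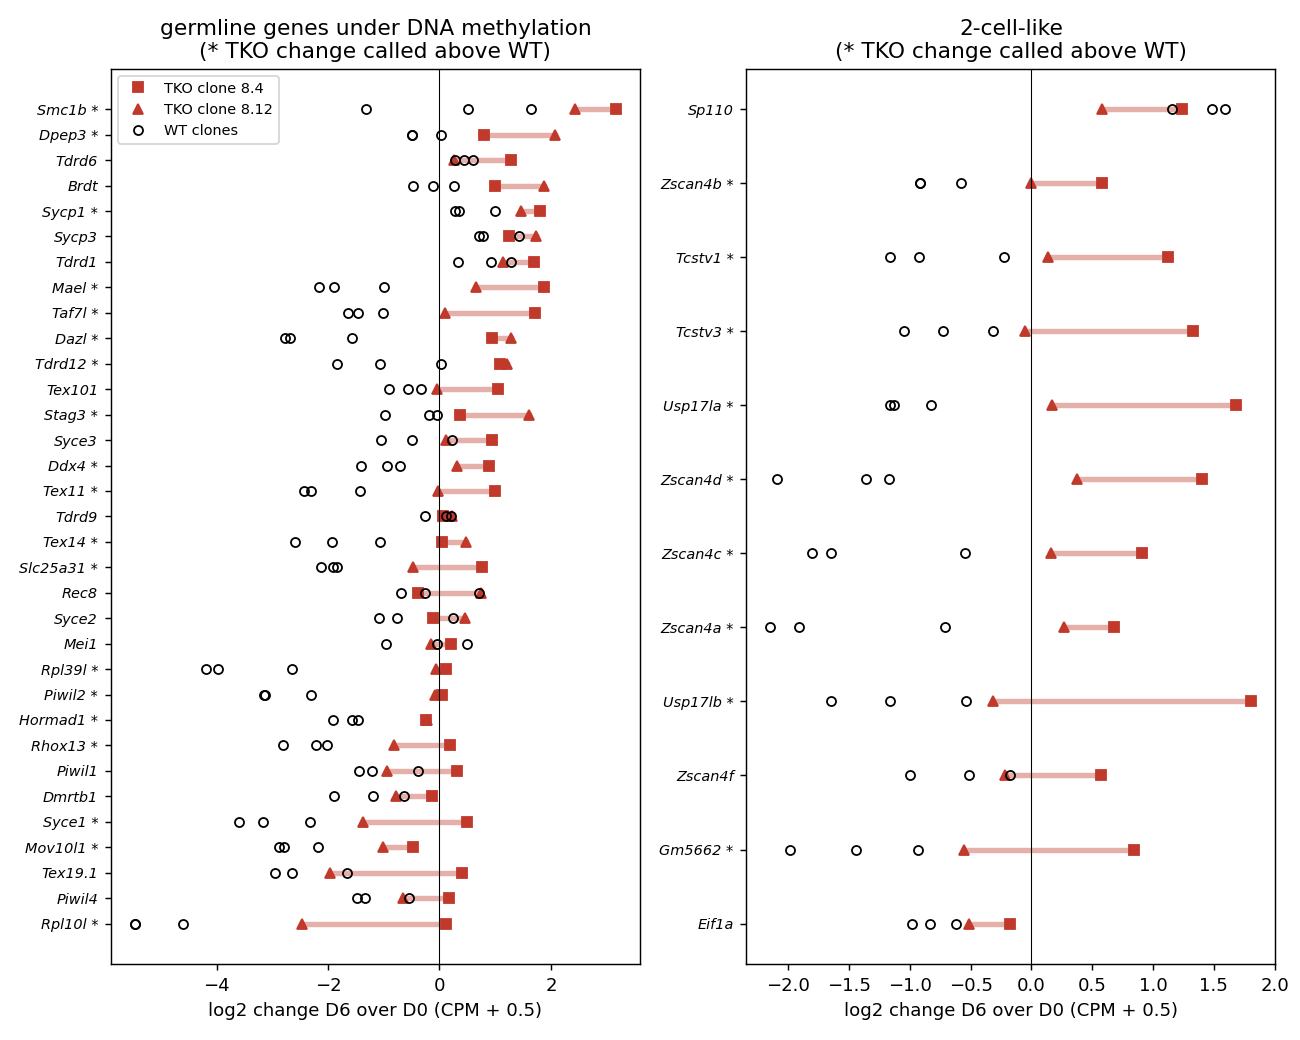
Log2 change from D0 to D6 on CPM plus 0.5 of the 33 germline genes (left) and 12 of the 13 2-cell-like genes (right) in TKO clone 8.4 (squares), the other TKO clone (triangles) and the 3 WT clones (open circles), with an asterisk on genes whose TKO change was called above WT. For most germline genes the TKO points lie to the right of the WT points, and among 2-cell-like genes the squares lie to the right of the triangles in all 12 plotted.

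The 2-cell-like state is a rare state of ESC cultures that resembles the 2-cell embryo. Genes of its list called higher in TKO were at low levels. The 13 tested genes summed to 363 and 487 CPM at D0 and 332 and 342 CPM at D6 in TKO. Of 13 tested, 4 were called higher and none lower in TKO, beside 16.9% and 8.44% of all genes, and 9 were called above WT, beside 2.73%. In WT 11 were called lower and 1 higher, beside 13.5% and 20.7% of all genes. The list medians were 1.90 in TKO (1.88 with genes at 0 counts on 1 day set to their bound), -2.97 in WT, -0.71 in DKO and -0.87 in Tet2-/- cells. None of the 13 was called above DKO by edgeR or DESeq2, with 8 above at an unadjusted p under 0.05, and 1 was called above Tet2-/-. Both TKO libraries lay below all 3 WT libraries at D0 in 10 of the 13 (76.9%, against 16.6% of all genes tested) and above them at D6 in 6 (46.2%, against 17.2%). Zscan4d stood at 0.376 and 0.0412 CPM at D0 and 1.81 and 0.2 CPM at D6, or 5.78-fold (95% interval 2.94 to 12.6), adjusted p = 0.00476. In WT it fell from a range of 0.969 to 1.90 CPM to one of 0.0637 to 0.151 CPM. Usp17la stood at 0.251 and 0.124 CPM at D0 and 1.91 and 0.2 CPM at D6, or 6.73-fold (95% interval 3.34 to 15.4), adjusted p = 0.00525. Tcstv1 stood at 0.125 and 0 CPM at D0 and 0.861 and 0.0499 CPM at D6, and Sp110 reached 0.677 and 0.25 CPM from 0 counts (at least 8.26-fold higher). Clone TKO_8.4 was the higher at D6 in all 4. Without its D6 library (and no block) the log2 changes of Tcstv1 and Zscan4d were -0.30 and -0.06. Eif1a was not called (log2 change -0.34). Without clone TKO_8.4, 1 gene was called higher and 1 above WT. Without clone TKO_8.12, 8 were called higher, and in a fit to the TKO libraries alone none. Without WT clone O4.13 the count above WT was 2. The Zscan4, Tcstv and Usp17l genes are multicopy families whose reads may be split among copies.

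Promoters of the germline list held a median of 18 CpG dinucleotides in 300 bases, against 19 over all genes tested, and none held fewer than 5. The 150 bases before the start are shown for Dazl and Mael, which rose in TKO and fell in WT, and for Zscan4d, with each CpG in capitals.
Dazl, chr17:50432925-50433074, minus strand: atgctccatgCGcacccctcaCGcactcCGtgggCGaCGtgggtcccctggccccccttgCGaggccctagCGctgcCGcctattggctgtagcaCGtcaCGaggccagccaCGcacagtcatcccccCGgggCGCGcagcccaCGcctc
Mael, chr1:168168876-168169025, minus strand: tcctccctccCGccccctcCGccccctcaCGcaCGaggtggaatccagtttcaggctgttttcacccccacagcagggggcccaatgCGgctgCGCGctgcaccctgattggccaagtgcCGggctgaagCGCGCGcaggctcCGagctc
Zscan4d, chr7:11751498-11751647, minus strand: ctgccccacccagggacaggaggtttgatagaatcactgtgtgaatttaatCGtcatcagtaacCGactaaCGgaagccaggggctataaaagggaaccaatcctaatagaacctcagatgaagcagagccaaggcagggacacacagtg
These stretches hold 15, 12 and 3 CpGs. Only 8 of the 13 tested 2-cell-like genes had a promoter sequence, so no value is given for that list.

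Across all genes the difference between TKO and WT responses was called in 783 (5.01%), with 427 above WT (2.73%) and 356 below (2.28%). Medians over the 427 were 0.31 in TKO and -2.06 in WT. Of them 310 were called lower in WT, and 224 of those were not called in TKO. Medians over the 356 were 0.19 and 1.82. Of them 246 were called higher in WT, and 143 of those were not called in TKO. Abcb1a, an efflux pump gene, stood at 5.81 and 9.03 CPM at D0 and 6.15 and 8.69 CPM at D6 in TKO and fell in WT from a range of 16.4 to 17.4 CPM to one of 1.85 to 2.36 CPM (difference 3.06 ± 0.25, adjusted p = 0.000373). D1Pas1, a helicase gene of spermatocytes, fell in WT from a range of 61.1 to 72.7 CPM to one of 1.56 to 3.05 CPM and stood at 10.5 and 5.03 CPM at D0 and 11.6 and 2.5 CPM at D6 in TKO (difference 4.52 ± 0.34, adjusted p = 0.000373). In Slfn9 TKO rose from 3.13 and 0.371 to 7.44 and 2.35 CPM where WT fell from a range of 11 to 14.2 CPM to one of 1.46 to 2.54 CPM (difference 4.50 ± 0.41, adjusted p = 0.000593). These 3 began lower in TKO than in WT. The histone demethylase gene Kdm6b stood at 84.7 and 78.4 CPM at D0 and 76.5 and 62.0 CPM at D6 in TKO and rose in WT from a range of 39.4 to 55.0 CPM to one of 90.9 to 155 CPM (difference -1.65 ± 0.17, adjusted p = 0.00111). The chromatin organizer gene Satb1 also began higher in TKO and rose less (difference -1.61 ± 0.19, adjusted p = 0.00198). The counts were 757 and 775 without clone TKO_8.12, 148 and 131 without WT clone O4.13 and 247 and 208 without WT clone O4.1.

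**Figure D5:**
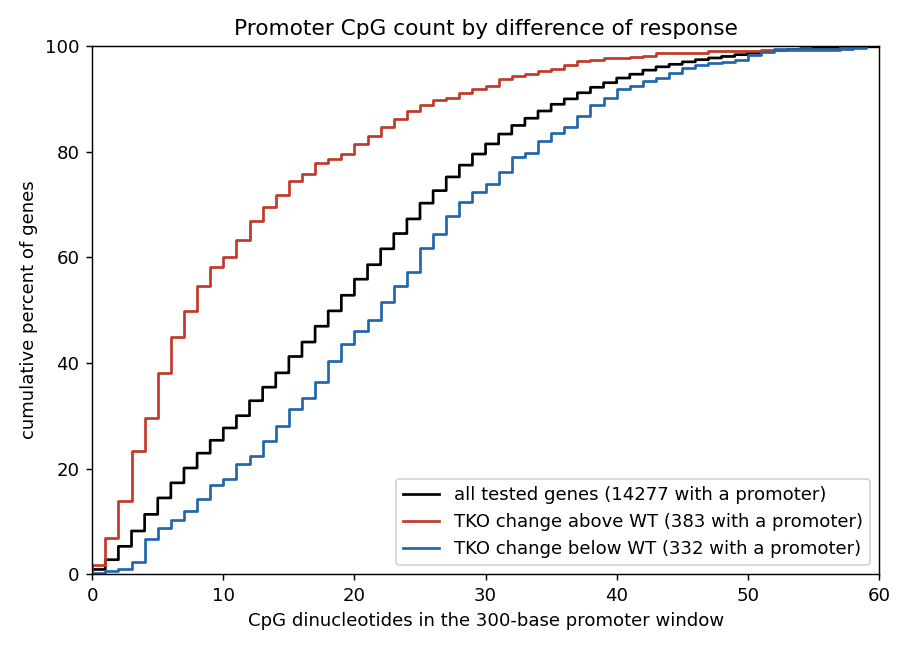
Cumulative percent of genes (vertical) against the number of CpG dinucleotides in the 300-base promoter window (horizontal) for all 14277 tested genes with a promoter (black), the 383 whose TKO change was above WT (red) and the 332 below WT (blue). The red curve lies above the black one over most of the range (medians 8 and 19 CpGs) and the blue curve below it (median 22).

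Genes above WT had a median of 8 CpGs in the window and 29.5% held fewer than 5, against 19 and 11.3% for all genes tested. Genes below WT had a median of 22, with 6.63% under 5. Genes called higher in TKO had a median of 14 and those called lower 17. These are descriptions of sets from the same fit, with no test.

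Against DKO, which keeps Tet3 intact, 13 genes were called above (0.0831%) and 10 below (0.0639%), with 2269 genes at an unadjusted p under 0.05. Few calls do not show that the genotypes respond alike, since the spread between clones sets how small a difference can be called. Fbxo15, an ESC marker gene, fell from 195 and 199 to 119 and 127 CPM in TKO and from a range of 282 to 317 CPM to one of 61.1 to 62.1 CPM in DKO (difference 1.60 ± 0.22, adjusted p = 0.0296). Manba, Gsta3 and D1Pas1 also differed upward (1.67 ± 0.24, 2.57 ± 0.35 and 2.2 ± 0.34). Cyclin D2 (Ccnd2) rose in TKO from 3.72 and 18.4 CPM to 19.3 and 67.7 CPM (log2 change 2.1 ± 0.28, adjusted p = 0.000116). In DKO, where it was not called, it was 21 to 25.1 CPM at D0 and 12 to 19.7 CPM at D6 (difference 2.68 ± 0.38, adjusted p = 0.0296). On the other side H2-K1 (difference -1.82 ± 0.16, adjusted p = 0.00167) began higher in TKO, at 37.2 and 47.4 CPM against 15.5 to 16.0 CPM. The protease genes Prss8 and Mmp14 and the muscle filament gene Des were below DKO as well (-1.83 ± 0.24, -1.13 ± 0.18 and -1.19 ± 0.19). DESeq2 gave 82 above and 99 below. Leaving out clone DKO_5.11 gave 0 and 1 and leaving out clone DKO_5.12 gave none. The counts were 101 and 94 without TKO_8.4 and 206 and 332 without TKO_8.12.

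Against Tet2-/- the difference was called in 311 genes above Tet2-/- (1.99%) and 180 below (1.15%). Of the 311, 179 were called higher in TKO and 114 were called lower in Tet2-/- cells, where 12.8% of all genes were called higher and 6.6% lower. The claudin gene Cldn4 rose from 32.7 and 18.7 to 125 and 82.6 CPM in TKO and was 64.7 to 74.4 CPM at D0 and 42.9 to 52.6 CPM at D6 in Tet2-/- cells (difference 2.58 ± 0.20, adjusted p = 0.000436). The laminin chain gene Lamb3 rose from 2.55 and 2.18 to 18.3 and 18.9 CPM in TKO and was 2.1 to 2.26 CPM at D0 and 1.53 to 1.92 CPM at D6 in Tet2-/- cells (difference 3.32 ± 0.32, adjusted p = 0.00117). The urokinase receptor gene Plaur differed the same way (2.93 ± 0.27). Each of these ended higher in both TKO libraries than in either Tet2-/- library. Bcl11a, a zinc finger factor gene, went from 3.13 and 1.11 to 1.69 and 1.5 CPM in TKO and from a range of 0.0853 to 0.175 CPM to one of 5.65 to 7.11 CPM in Tet2-/- cells (difference -5.79 ± 0.67, adjusted p = 0.00426). The retinoid receptor gene Rxrg and Gm7325 were also below Tet2-/- (-3.41 ± 0.42 and -3.09 ± 0.31). The counts were 1035 and 808 without clone TKO_8.4 and 205 and 169 without clone TKO_8.12. They were 5 and 2 or 6 and 1 when either Tet2-/- clone was left out.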

How the data were processed

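RNA was measured by RNA-seq in 24 libraries of ESC clones. The authors deposited raw counts per gene, not normalised, in 1 table per day. The submitters' processing notes name STAR 2.5.1, mm9 and DESeq2. The deposited tables are named for featureCounts, and its version and strand setting are not given in the sources used here. The study's scaling to ERCC spike-ins was not repeated. Each table held 31928 lines and 22926 gene symbols, of which 4911 had more than 1 line, and the first was used. TKO libraries held 19603502 to 29931126 counts, and intervals and floors (3 counts over both libraries of a day) cover counting error only.

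Groups came from the labels. All 24 libraries entered 1 fit in edgeR 4.0.16 (R 4.3.3, limma 3.58.1), with TMM scaling, a filter at a minimum count of 10, clone as a block, 1 day effect per genotype and 6 residual degrees of freedom. Differences of responses were contrasts in this fit, with Benjamini-Hochberg adjustment over 15639 genes. The block was used because each TKO, WT, DKO and Tet2-/- clone gives both days. A D6 DKO label that lacks the point of DKO_5.12 was read as that clone. Tet1-/- clones 2.3 (D0) and 2.2 (D6) give 1 day each and are unpaired in the fit. The correlation between days of clone deviations was 0.188 in TKO and 0.077 to 0.171 in the others. On simulated data 200 of 200 genes changed by 2 log2 units between TKO days were recovered with 6 false calls (14796 genes), and 196 of 200 for TKO minus WT with 7 (15494 genes). The simulation used 1 dispersion per gene for all groups and no differences between clones, and changed no gene of low level. It therefore does not show recovery or false calls at the wider spread of the TKO clones. Figures used Python 3.11.15 and matplotlib 3.10.9.

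The members and lists were chosen with earlier results of these data known. Genes named were the edited and marker genes of the study, per list up to 4 called with the largest change and 2 not called of the highest level, the 12 largest rises and falls of genes over 2-fold in both clones and at 5 CPM in both libraries of the higher day, 8 per direction for each difference of responses, and 8 per direction between clones at 10 CPM. Other genes, among them Jam2, Sox15, Dppa2, Dppa4, Mesp1, Kdr, Eomes, Sox17, Dazl, Mael, Piwil2 and Rpl39l, were chosen after their values were seen, as was the interferon list. Alternatives were other scaling, DESeq2 1.42.0, no filter, another line per symbol, no block, the TKO libraries alone and leaving out each clone, and, added after seeing the data, each TKO library. Some genes the rule selects are not reported here. Promoters were matched by symbol to GENCODE for 91.3% of genes tested.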

Additional observations from a re-analysis of the deposited data

Results flagged for a closer look

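A gene is listed here because the change from D0 to D6 differed between TKO and another genotype by a test of the difference itself (edgeR, interaction contrast). All values are log2 differences of responses, TKO minus the other genotype.

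Against WT, 427 genes were above and 356 below. Among those with the smallest adjusted p above were Abcb1a (3.06), Clca4 (4.59), D1Pas1 (4.52), Dnmt3l (2.59), Fbxo15 (2.3), Prex2 (2.48), Rnf17 (2.12) and Slfn9 (4.50). Among those below were Adamts9 (-1.78), Foxh1 (-1.77), H2-K1 (-1.35), Kdm6b (-1.65), Kifc2 (-1.81), Satb1 (-1.61), Sema3f (-2.20) and Trib2 (-2.68).

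Against DKO, 13 genes were above and 10 below. Among those with the smallest adjusted p above were 1700029P11Rik (2.77), Ccnd2 (2.68), D1Pas1 (2.2), Fbxo15 (1.60), Gsta3 (2.57), Lmo7 (1.37), Manba (1.67) and Nckap5 (3.84). Among those below were Cep170b (-1.21), Des (-1.19), H2-K1 (-1.82), Mmp14 (-1.13), Obsl1 (-1.42), Plekhg2 (-1.48), Prss8 (-1.83) and Rps6ka2 (-1.35).

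Against Tet2-/-, 311 genes were above and 180 below. Among those with the smallest adjusted p above were Cldn4 (2.58), Hspg2 (1.23), Lamb3 (3.32), Lrpap1 (1.56), Mvp (1.97), Nckap5 (4.03) and Plaur (2.93). Among those below were Ankrd34a (-4.37), Bcl11a (-5.79), Coch (-2.26), E2f2 (-1.63), Fzd3 (-1.34), Gm7325 (-3.09), Rxrg (-3.41) and Tmem151b (-3.16).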

How the results depend on the processing

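Across the main fit and all alternatives TKO calls ran from 1972 to 3193 higher and from 944 to 1842 lower. The replicate block pairs the 2 days of a clone, and without the replicate block the calls were 2626 and 1350, with 95.3% of the 3968 calls shared. Library totals kept 90.5%, DESeq2 90.3%, the TKO libraries alone 74.0%, and leaving out clone TKO_8.4 or TKO_8.12 80.7% or 67.8%. With 2 TKO clones, a clone left alone was assumed to vary like the other genotypes. Depth limits genes near the floor of 3 counts. The cause of these shifts was not tested.

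Without the replicate block, the counts that moved past 1.5-fold were TKO minus DKO, genes higher 3, TKO minus DKO, genes lower 2, germline, called higher 7, naive pluripotency, above WT 0. With DESeq2 size factors, the log2 changes that turned sign were Hsp90aa1 0.0181. With library totals, the log2 changes that turned sign were Nanog 0.0891, Hoxd13 0.0100, Hsp90aa1 0.17. With DESeq2 and the replicate block, the counts that moved past 1.5-fold were TKO minus DKO, genes higher 82, TKO minus DKO, genes lower 99, TKO minus Tet2, genes lower 288, Hox genes, called higher 11 and the log2 changes that turned sign were Hsp90aa1 0.0181. With no filter on low counts, the counts that moved past 1.5-fold were TKO minus DKO, genes higher 32, TKO minus DKO, genes lower 27 and the log2 changes that turned sign were Eng -0.00434. In the TKO libraries alone, with the replicate block, the counts that moved past 1.5-fold were Hox genes, called higher 3, 2-cell-like, called higher 0 and the log2 changes that turned sign were Hsp90aa1 0.0212. Without clone TKO_8.4, the counts that moved past 1.5-fold were TKO minus DKO, genes higher 101, TKO minus DKO, genes lower 94, TKO minus Tet2, genes higher 1035, TKO minus Tet2, genes lower 808, 2-cell-like, called higher 1, 2-cell-like, above WT 1, naive pluripotency, above WT 1 and the log2 changes that turned sign were Nanog 0.22, Tet1 0.46, Tet2 0.37, Hoxd13 0.17, Eng -0.17, Lamc1 0.0858, Dnmt3b -0.10. Without clone TKO_8.12, the counts that moved past 1.5-fold were TKO minus WT, genes higher 757, TKO minus WT, genes lower 775, TKO minus DKO, genes higher 206, TKO minus DKO, genes lower 332, TKO minus Tet2, genes higher 205, core pluripotency, called lower 3, Hox genes, called higher 1, 2-cell-like, called higher 8, definitive endoderm, below WT 3 and the log2 changes that turned sign were Dusp6 -0.23, Il6st -0.00413, Fn1 -0.51, Fbn1 -0.28, Syce2 -0.0914, Tex19.1 0.44, Ube3a -0.14, Snai2 -0.56, Tfap2a -0.59, Zic5 0.27, Hsp90aa1 0.15, Hspa8 0.0413. Without WT clone O4.1, the counts that moved past 1.5-fold were TKO minus WT, genes higher 247, TKO minus WT, genes lower 208, naive pluripotency, above WT 0, definitive endoderm, below WT 3. Without WT clone O4.2, the counts that moved past 1.5-fold were naive pluripotency, above WT 12. Without WT clone O4.13, the counts that moved past 1.5-fold were TKO minus WT, genes higher 148, TKO minus WT, genes lower 131, germline, above WT 7, 2-cell-like, above WT 2, naive pluripotency, above WT 0, streak, below WT 3. Without clone DKO_5.11, the counts that moved past 1.5-fold were TKO minus DKO, genes higher 0, TKO minus DKO, genes lower 1. Without clone DKO_5.12, the counts that moved past 1.5-fold were TKO minus DKO, genes higher 0, TKO minus DKO, genes lower 0. Without clone Tet2_KO_3.10, the counts that moved past 1.5-fold were TKO minus Tet2, genes higher 5, TKO minus Tet2, genes lower 2. Without clone Tet2_KO_3.11, the counts that moved past 1.5-fold were TKO minus Tet2, genes higher 6, TKO minus Tet2, genes lower 1. Without the D0 library of TKO_8.4 (no block), the counts that moved past 1.5-fold were Hox genes, called higher 9, germline, called higher 6 and the log2 changes that turned sign were Tet1 1.89, Tet2 0.73, Hoxd13 0.22, Smad2 -0.0420, Eng -0.0343, Lamc1 0.13. Without the D0 library of TKO_8.12 (no block), the counts that moved past 1.5-fold were core pluripotency, called lower 5, Hox genes, called higher 10, 2-cell-like, called higher 1 and the log2 changes that turned sign were Dusp6 -0.11, Il6st -0.0331, Fzd7 -0.21, Fbn1 -0.0356, Dnmt3a 0.0272, Syce2 -0.24, Tex19.1 0.33, Ube3a -0.0604, Tfap2a -0.12, Hsp90aa1 0.53, Hspa8 0.0371. Without the D6 library of TKO_8.12 (no block), the counts that moved past 1.5-fold were core pluripotency, called lower 2, Hox genes, called higher 2, germline, called higher 4, 2-cell-like, called higher 10 and the log2 changes that turned sign were Cdh5 -0.25, Dusp6 -0.0303, Fn1 -0.30, Ube3a -0.0579, Snai2 -0.93, Zic5 0.14. Without the D6 library of TKO_8.4 (no block), the counts that moved past 1.5-fold were 2-cell-like, called higher 1 and the log2 changes that turned sign were Nanog 0.23, Tcstv1 -0.30, Zscan4d -0.0598, Fzd7 -0.32, Eng -0.12, Syce2 -0.00772, Hsp90aa1 0.28.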
